A study of Mus musculus with 3 samples.

Results

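DAPT and valproic acid were compared as additions to a CHIR99021 medium in mouse small intestinal organoids, across all genes measured in 1 single-cell RNA library of each medium. The cells were those of the merged count table whose names carry the ENR+CD or the ENR+CV library, with at least 1000 and fewer than 8000 UMIs and 400 or more genes. A UMI (unique molecular identifier) is a tag that marks 1 captured mRNA molecule. This left 2383 of 2506 ENR+CD cells and 985 of 1092 ENR+CV cells, 3368 of the 6249 cells of the study's organoid table. Of 23271 genes in that table, 12099 had 20 or more UMIs over both libraries and were compared.

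The organoids came from proximal small intestinal crypts of C57BL/6 mice aged 3 to 6 months, and the single-cell libraries from a single donor. Crypts were first grown as stem-cell-enriched cultures in ENR+CV, so cells of every medium had met valproic acid and CHIR99021 before. They were then kept for 6 days in ENR+CV, in ENR+CD or in ENR, and 6 wells of a medium were pooled on 1 Seq-Well array, a chip of sealed microwells loaded with 20000 cells. E is EGF (50 ng/mL), N is Noggin (100 ng/mL), R is R-spondin 1 (500 ng/mL), C is CHIR99021 (3 uM), D is DAPT (10 uM) and V is valproic acid (1 mM). ENR+CD and ENR+CV therefore shared the 3 growth factors and CHIR99021 at equal dose, and differed in DAPT against valproic acid. The rho kinase inhibitor Y-27632 (10 uM) was given for the first 2 days of the initial culture.

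Crypt cells read a Wnt signal and a Notch signal. CHIR99021 inhibits the kinase GSK3, which otherwise marks β-catenin for destruction, and so turns on Wnt target genes without a ligand. DAPT inhibits γ-secretase, the protease complex that cuts ligand-bound Notch receptors to free their active intracellular part. With Notch active, HES1 represses Atoh1 and crypt cells stay progenitors or become absorptive enterocytes. Without Notch, Atoh1 is expressed and cells enter the secretory lineages, which are Paneth, goblet, enteroendocrine and tuft cells. Valproic acid inhibits class I histone deacetylases, enzymes that remove acetyl groups from histones, and used with CHIR99021 it keeps intestinal stem cells in culture.

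Each medium had 1 library, so there was no replicate error, no test and no p-value, and an effect of the medium cannot be told apart from a difference between the arrays. Values are CPM, the UMIs of a gene per 1000000 UMIs of the kept cells of a library, with a 95% exact Poisson interval. Ratios carry a 95% exact binomial interval, and both intervals cover counting error only. A gene was counted as higher in a medium where its CPM differed at least 2-fold and the intervals of the libraries did not overlap. A library with fewer than 3 UMIs of a gene was set to a floor of 3 UMIs for ranking, for counts and for list medians, which makes those medians bounds. Where a library had 0 UMIs, the fold is written as a lower bound against that floor, followed by the lower end of the exact interval of the ratio, which is smaller.

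The labels of the libraries conflict. Each sample also has a count table of its own barcodes, and their cells do not match these names: that of the ENR+CV sample held all 2506 cells that carry the ENR+CD name in the merged table, with identical counts, and that of the ENR+CD sample held all 1092 cells that carry the ENR+CV name. Merged names were used here. The number of cells that the study states for each medium goes with the merged names and not with the sample tables, but every direction given below would turn if they were the wrong ones. No value with and without the conflict can be given, since each medium had no other library. The libraries shared 0 cell barcodes. Library ENR+CD held 4538388 UMIs (median 1543 a cell, 18.3 reads per UMI) and library ENR+CV 2942252 (median 2499, 10.2 reads per UMI).

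Epithelial genes were present in both. Epcam, which encodes an epithelial adhesion molecule, stood at 1190 CPM (1158 to 1222) in ENR+CD and 1690 CPM (1643 to 1737) in ENR+CV. Of the markers of other tissues, most had too few UMIs to compare. In ENR+CD and ENR+CV, in that order, the leukocyte gene Ptprc had 1 and 2 UMIs, Cd3e of T cells 0 and 0, Col1a1 of fibroblasts 0 and 6, and Pecam1 of endothelium 6 and 1. Of 15 immune genes 2 could be compared, Lyz2, which Paneth cells also express, and Itgam, an integrin gene of myeloid cells. Itgam was not near 0, at 27.3 CPM (22.7 to 32.6) in ENR+CD, 31.9 CPM (25.8 to 39.1) in ENR+CV and 39.5 CPM in ENR. Of 14 stromal and endothelial genes 2 could be compared, and Vim was 3.73-fold higher in ENR+CV (3.25 to 4.28).

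Over the 12099 genes, 859 were higher in ENR+CD (7.1%) and 2287 were higher in ENR+CV (18.9%), of which 171 and 242 were past 10-fold. The median gene lay 0.36 log2 units lower in ENR+CD, a shift of -0.36 that touches every ratio below. When the libraries were centred on genes rather than scaled to their totals (a shift of -0.40 log2), 1434 genes were higher in ENR+CD (11.9%) and 1178 in ENR+CV (9.74%). The share of counted genes that were higher in ENR+CD thus went from 27.3% to 54.9%. Counts after centring are given beside the list counts for this reason, and list counts are to be read against these overall shares. Centring raises every ratio of ENR+CD over ENR+CV alike. A gene counted as higher in ENR+CD thus stays counted after centring by construction, and only counts in ENR+CV can fall. Scaling to the UMIs outside the antimicrobial, mitochondrial and short non-coding RNAs gave nearly the same, 11.9% and 9.67%. Among cells under 5% mitochondrial UMIs (598 in ENR+CD, 711 in ENR+CV) the shares were 4.81% and 22.6%, with the 434 ENR+CD cells low in antimicrobials 8.14% and 11.2%, and on reads in place of UMIs 20.8% and 20.6%. Cells low in antimicrobials are those with under 5% of their UMIs on the Paneth antimicrobial list, set against all 985 ENR+CV cells. In ENR+CD the 10 genes with most UMIs held 24.8% of the library and in ENR+CV 8.11%, and 218 against 637 genes made up 50% of the UMIs.

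**Figure D1:**
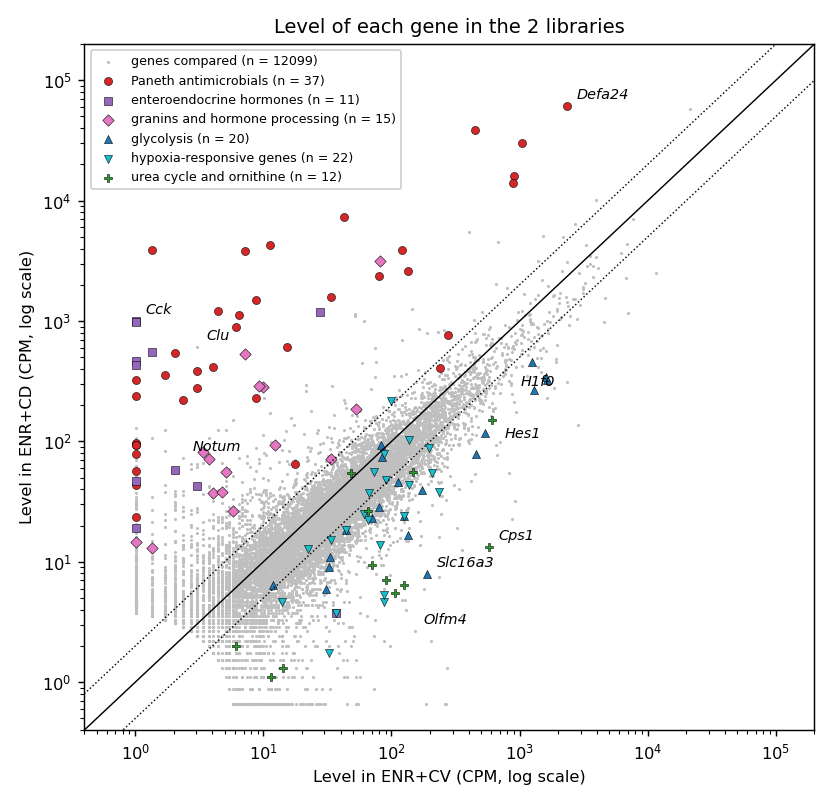
Level of each of the 12099 genes compared, in ENR+CV (x axis) and in ENR+CD (y axis), in CPM on log scales, 1 library each. Points are genes, coloured symbols are members of 6 lists, the solid line marks equal levels, the dotted lines a 2-fold difference, and counts under 3 UMIs sit at the floor of 3 UMIs. Most Paneth antimicrobial and hormone genes lie above the upper dotted line, with Defa24 at 61299 CPM against 2356 CPM, and most glycolysis and urea cycle genes lie below the lower one, with Cps1 at 13.2 CPM against 581 CPM.

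The Notch target genes that differed were all lower with DAPT than with valproic acid. Of 12 targets compared, 0 were higher in ENR+CD and 6 were higher in ENR+CV, with a median log2 of -1.0. After centring the count in ENR+CV was 3. Hes1 (chr16:30064384-30067796 in GRCm38), which encodes the repressor that Notch turns on in crypt progenitors, stood at 93.6 CPM (85.0 to 103) in ENR+CD and 652 CPM (623 to 682) in ENR+CV. It was 6.96-fold higher in ENR+CV (6.26 to 7.75), and with 139 CPM in ENR the ENR+CV library stood apart from both others. Nrarp, a feedback inhibitor of Notch, had 7 UMIs in ENR+CD and 55 in ENR+CV, a 12.1-fold difference (5.50 to 31.5). Olfm4, a stem cell gene that depends on Notch, stood at 2.64 CPM (1.37 to 4.62) in ENR+CD, 152 CPM (138 to 167) in ENR+CV and 854 CPM in ENR. It was 57.5-fold higher in ENR+CV than in ENR+CD (32.6 to 112) and thus low in ENR+CD against both others. Dtx4, Myc and Ccnd1 were 2.05-fold (1.57 to 2.67), 2.24-fold (1.85 to 2.71) and 2.01-fold higher in ENR+CV (1.75 to 2.32), and these 3 were the ones no longer counted after centring. Hes6 differed 1.51-fold (1.35 to 1.70) and Sox9, which encodes a crypt transcription factor, 1.04-fold in the other direction (0.946 to 1.16). Hes5 had 1 and 3 UMIs and Hey1 0 and 1, too few to compare.

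The Olfm4 start site is shown because Olfm4 had the largest ratio among the Notch targets and its window holds the RBPJ motif TGGGAA, in capitals, 12 bases before the start. RBPJ is the DNA-binding partner of the Notch intracellular part. The window spans the start site on the plus strand, from RefSeq, build GRCm38.p6, chr14:80000052-80000351.
Olfm4: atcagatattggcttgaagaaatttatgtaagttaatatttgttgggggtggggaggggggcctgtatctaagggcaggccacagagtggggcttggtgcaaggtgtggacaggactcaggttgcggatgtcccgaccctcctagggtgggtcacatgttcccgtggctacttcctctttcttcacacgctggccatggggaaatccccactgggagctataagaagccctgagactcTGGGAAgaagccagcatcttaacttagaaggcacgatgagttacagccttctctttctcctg
The motif, searched on both strands as TGGGAA, was present for 28.3% of all genes in the promoter table and for 2 of the 6 Notch targets matched. It was present for 25.9% of the genes higher in ENR+CD, 23.2% of those higher in ENR+CV and 26.2% of the genes compared that matched the promoter table.

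Receptor, processing and ligand genes were a further set of lists. Of 21 receptors and processing genes 0 were higher in ENR+CD and 4 were higher in ENR+CV, 1 of them after centring. The 4 made up 19% of the list, against 18.9% over all genes. They were Psenen (2.57-fold, 2.09 to 3.18), Aph1a (2.33-fold, 1.55 to 3.55) and Aph1b (2.47-fold, 1.59 to 3.88), which encode subunits of γ-secretase, and Rfng (2.79-fold, 1.77 to 4.47), which encodes a glycosyltransferase acting on Notch. Notch1 differed 1.99-fold (1.45 to 2.73) and Notch2 1.10-fold (0.693 to 1.74). Of 7 ligand genes compared, Dll4 was 2.23-fold higher in ENR+CD (1.42 to 3.63) and Dner 4.03-fold (1.98 to 9.28). Neurl1b, which encodes a ubiquitin ligase for Notch ligands, was 2.99-fold higher in ENR+CV (1.62 to 5.73). After centring 2 ligand genes were higher in ENR+CD and 0 in ENR+CV. Dll1 was at a ratio of 1.35 (0.921 to 1.97) and Jag1 of 1.23 (0.711 to 2.09), ENR+CV over ENR+CD, and both intervals included equal levels.

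**Figure D2:**
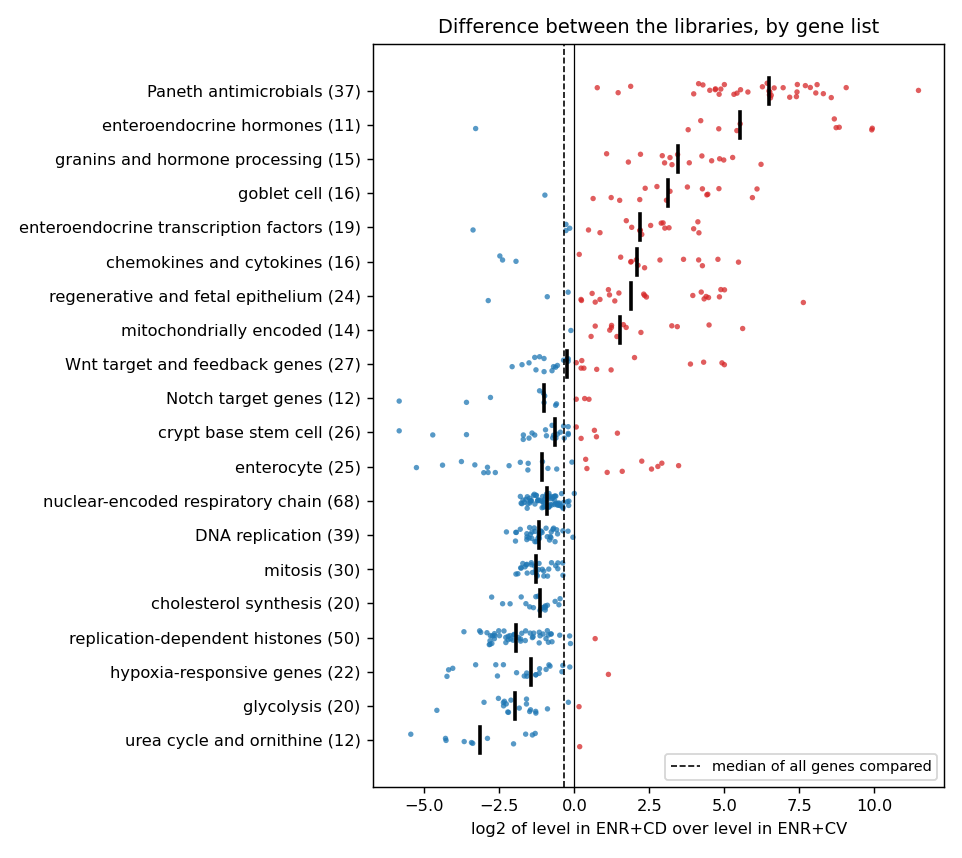
log2 ratio of the level in ENR+CD over the level in ENR+CV (x axis) for the genes of 20 lists (y axis, number of genes compared in brackets). Each point is a gene, red where higher in ENR+CD and blue where higher in ENR+CV, short black bars are list medians, and the dashed line is the median of all genes compared, -0.36. The medians run from 6.49 for the Paneth antimicrobials to -3.14 for the urea cycle, and Notch targets and crypt base stem cell genes have medians of -1.0 and -0.65.

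Secretory fate factors that differed were higher in ENR+CD. Of 15 compared, 4 were higher in ENR+CD (6 after centring) and 0 in ENR+CV. Atoh1, the factor that commits crypt cells to secretory fates, was 5.62-fold higher in ENR+CD (2.81 to 12.7), with 78 UMIs against 9. Spdef, needed for Paneth and goblet maturation, was 9.08-fold higher (4.63 to 20.3), and Bhlha15, a factor of the secretory machinery, 5.23-fold (3.10 to 9.42), with Creb3l4 at 4.54-fold (2.68 to 8.21). Xbp1, a factor of the secretory apparatus, differed 1.33-fold (1.20 to 1.49). In the 434 ENR+CD cells low in antimicrobials the Atoh1 ratio was 1.25, at 3.84 CPM in those cells, and the Spdef ratio 4.39. Leaving out Paneth-rich cells from ENR+CD alone lowers the genes of those cells, so no conclusion is drawn from these falls.

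Paneth cell antimicrobials were the list furthest on the ENR+CD side. Of 37 compared, 36 were higher in ENR+CD and 0 in ENR+CV, with a median log2 of 6.49, and 37 were higher after centring. Alpha-defensins are the microbicidal peptides of Paneth granules. Defa24 stood at 61299 CPM (61072 to 61528) in ENR+CD, 2356 CPM (2301 to 2412) in ENR+CV and 20228 CPM in ENR, a 26.0-fold difference between the CHIR99021 media (25.4 to 26.6). Lyz1, which encodes Paneth lysozyme, stood at 13989 CPM (13881 to 14099) in ENR+CD, 885 CPM (852 to 920) in ENR+CV and 2190 CPM in ENR, 15.8-fold higher in ENR+CD (15.2 to 16.4). Both genes thus kept the order ENR+CD, ENR, ENR+CV, and such sums do not tell more cells of a type from more RNA per cell. Ang4, a microbicidal ribonuclease, was 173-fold higher in ENR+CD (146 to 208) and Itln1, a lectin, 17.7-fold (17 to 18.4). Reg3b, a bactericidal lectin of the whole epithelium, was 2.75-fold higher (2.55 to 2.98), and its relative Reg3g, at 1.70-fold (1.56 to 1.86), was the member not counted.

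The defensin genes were not scaled alike. The 27 defensin genes together were 37.3-fold higher in ENR+CD. Defa24 made up 39.8% of their UMIs in ENR+CD and 56.9% in ENR+CV, Gm15284 25% and 10.8%, and Defa17 19.4% and 25.4%. Gm14851 had 17403 UMIs in ENR+CD and 21 in ENR+CV, a ratio of 537 (351 to 868). Many of these genes, like Lyz1 and Lyz2, are nearly the same in sequence, so the split of reads among them is uncertain, while the sum does not depend on it.

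The other Paneth genes moved with them in part. Of 22, 11 were higher in ENR+CD and 0 in ENR+CV (14 and 0 after centring), with a median log2 of 1.29. Mmp7, the protease that activates pro-defensins, was 32.1-fold higher in ENR+CD (28.9 to 35.8). It is a member of the antimicrobial list above and also a Wnt target, so it adds no separate support here. Nupr1, a stress-induced transcriptional regulator, was 7.60-fold higher (6.51 to 8.93), but 1.28-fold in the ENR+CD cells low in antimicrobials. Only ENR+CD cells were so chosen, so a fall for a gene of Paneth cells follows from the choice.

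Antimicrobial RNA was spread over the ENR+CD cells and gathered in few ENR+CV cells. The antimicrobials took a median of 19% of a cell's UMIs in ENR+CD (quartiles 8.23% and 28.3%) and 0.141% in ENR+CV (0.0787% and 0.245%). The 5% of cells with most UMIs of the list held 23.1% of its UMIs in ENR+CD and 76.4% in ENR+CV. In droplet and well data free RNA adds UMIs to every cell. In the barcodes under 500 UMIs the list took 12.6% in ENR+CD (2670 barcodes) and 0.448% in ENR+CV (3191 barcodes). Whether these barcodes were empty or held small or damaged cells was not tested. The ENR+CV cell median lay below the share of such barcodes, and so did the lower quartile of ENR+CD cells. Shares of that size in single cells were therefore not told apart from background.

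**Figure D3:**
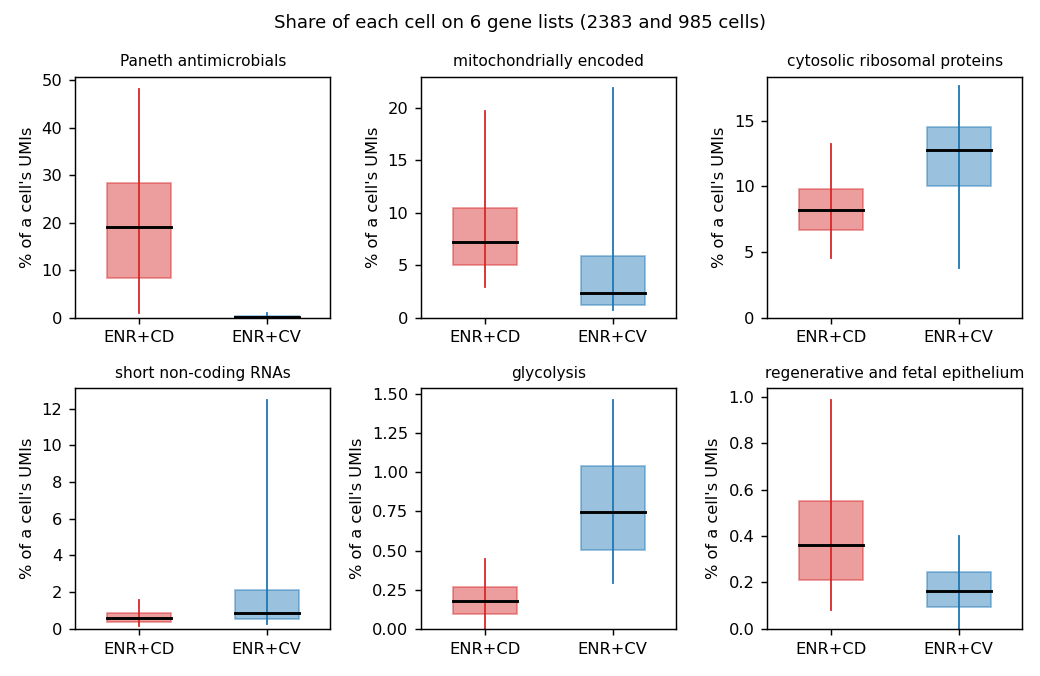
Share of a cell's UMIs on the genes of 6 lists (y axes, percent) in the 2383 ENR+CD cells (red) and the 985 ENR+CV cells (blue). Black bars are medians over cells, boxes the quartiles and lines the 5th to 95th percentile of cells, which are not replicates. The median antimicrobial share is 19% in ENR+CD and 0.141% in ENR+CV, while the median glycolysis share is 0.176% against 0.748%.

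Enteroendocrine genes, those of the hormone cells, were higher in ENR+CD from factor to product. Of 19 transcription factors 12 were higher in ENR+CD and 1 in ENR+CV (14 and 1 after centring), with a median log2 of 2.20. Neurog3, which starts the lineage, was 3.32-fold higher in ENR+CD (2.63 to 4.24), at 97.2 CPM (88.3 to 107) against 29.2 CPM (23.4 to 36.1) and 19.2 CPM in ENR. Its target Neurod1 was 8.10-fold higher (5.96 to 11.3) and Fev, a factor of serotonin cells, 17.4-fold (7.82 to 48.1). Pdx1, a factor of the proximal intestine, was the exception with 4 UMIs in ENR+CD and 27 in ENR+CV, 10.4-fold higher in ENR+CV (3.63 to 40.9).

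Hormone genes had the second highest list median, 5.53. Of 11 compared, 10 were higher in ENR+CD, before and after centring, and Adm, which hypoxia also induces, was 9.80-fold higher in ENR+CV (5.84 to 17.4). Cck, for cholecystokinin, had 4545 UMIs in ENR+CD and 2 in ENR+CV, a ratio of 1473 (408 to 12169). Gcg, the proglucagon gene, had 4488 and 1, a ratio of 2910 (522 to 114948). Gip had 1969 and 0, at least 426-fold higher in ENR+CD against the floor (interval from 346). Cck, Gcg and Gip together thus had 3 UMIs in ENR+CV. Sct, for secretin, which late hormone cells of several types share, was present in both libraries and 42.9-fold higher in ENR+CD (34.4 to 54.1). Tac1, for the peptide of serotonin cells, had 2519 UMIs against 4, a ratio of 408 (159 to 1500). In ENR, with neither compound, Cck stood at 605 CPM and Gcg at 391 CPM, so it was ENR+CV that stood apart.

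All 15 genes compared for granins and hormone processing were higher in ENR+CD, before and after centring, with a median log2 of 3.44. Chga, the standard marker of hormone granules, was 75-fold higher (48.9 to 121) and Chgb 38.9-fold (34.2 to 44.4). Tph1, which makes serotonin, was 33.7-fold higher (11.3 to 165), and Maob, which breaks down amines, was 5.40-fold higher in ENR+CV (3.25 to 9.37). In the ENR+CD cells low in antimicrobials 15 of 15 were again higher in ENR+CD, with a median log2 of 3.96. The granin list took 0.496% of the ENR+CD library and 0.0237% of the ENR+CV library, and the hormone list 0.480% and 0.0075%. In barcodes under 500 UMIs of ENR+CD the shares were 0.562% and 0.675%, as high as in its cells, so granin and hormone UMIs of single ENR+CD cells were not read as expression by each cell. The difference between the libraries was seen in those barcodes too, at 0.0115% and 0.0136% in ENR+CV.

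Goblet and tuft genes followed. Of 16 goblet genes 13 were higher in ENR+CD and 0 in ENR+CV (14 and 0 after centring), with a median log2 of 3.13. Tff3, a trefoil peptide of mucus, was 13.6-fold higher (12.9 to 14.5), Agr2, which folds mucins, 21.9-fold (18.6 to 25.9), and Zg16, a mucus lectin, had 316 UMIs against 0, at least 68.3-fold (interval from 55.2). The mucin gene Muc2 had 284 UMIs against 2, a ratio of 92.1 (25.3 to 764). Spink4 was 6.75-fold higher over all cells (6.45 to 7.07). In the ENR+CD cells low in antimicrobials the ratio was 3.75 for Tff3, 9.52 for Agr2 and 0.985 for Spink4, and 8 goblet genes were higher in ENR+CD and 1 in ENR+CV. The goblet list took 0.348% of the UMIs of those cells, 1.6% of the other ENR+CD cells and 0.139% of the ENR+CV library. In barcodes under 500 UMIs it took 0.968% in ENR+CD and 0.116% in ENR+CV. Goblet UMIs of the cells low in antimicrobials were therefore not read as expression by those cells. Only ENR+CD cells were so chosen, and the lower goblet ratios there follow in part from the choice. Of 9 tuft cell genes 6 were higher in ENR+CD and 0 in ENR+CV (7 and 0 after centring, 1 and 0 in the cells low in antimicrobials), among them Trpm5, the channel of tuft cell sensing, with 26 and 2 UMIs, while Dclk1 with 23 and 4 UMIs was not counted.

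The labels call ENR+CD Paneth enriched and ENR+CV stem cell enriched, and most stem cell genes that differed were higher in ENR+CV. Of 26 crypt base genes 8 were higher in ENR+CV (30.8%) and 1 in ENR+CD (3.85%), against 18.9% and 7.1% of all genes. The median log2 was -0.65 against -0.36 for all genes, and after centring the counts were 7 and 3. Lgr5, the R-spondin receptor that marks stem cells, stood at 84.0 CPM (75.7 to 92.8) in ENR+CD, 141 CPM (127 to 155) in ENR+CV and 121 CPM in ENR, 1.68-fold higher in ENR+CV (1.46 to 1.93). Ascl2, the stem cell transcription factor, was 2.85-fold higher in ENR+CV (2.23 to 3.68) and Smoc2, a matrix protein gene, 3.26-fold (3.07 to 3.46). Bmi1, a polycomb gene, was 2.71-fold higher in ENR+CD (1.99 to 3.74). Olfm4 and Nrarp are on this list and on the Notch list, so the counts overlap. The largest ratios in the list were those of Olfm4 and of Aqp4, a water channel gene, 26.4-fold higher in ENR+CV (17.2 to 42.7), while Lgr5, Axin2 and Rnf43 stayed under 2-fold.

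Wnt target genes split, with CHIR99021 in both media. Of 27 compared, 6 were higher in ENR+CD (22.2%) and 7 in ENR+CV (25.9%), with 7 and 3 after centring and a median log2 of -0.25. The shares over all genes were 7.1% and 18.9%. Axin2, the common readout of β-catenin, stood at 160 CPM (149 to 172) in ENR+CD and 259 CPM (241 to 278) in ENR+CV, and at 119 CPM in ENR. The 6 targets higher in ENR+CD were Mmp7, Notum, Nkd1, Wif1, Dkk3 and Bambi. Notum (chr11:120653788-120661175), a secreted enzyme that inactivates Wnt ligands, had 328 UMIs in ENR+CD, 7 in ENR+CV and 3 in ENR, 30.4-fold higher in ENR+CD than in ENR+CV (14.6 to 76.2). Nkd1, a cytoplasmic inhibitor, stood at 131 CPM (121 to 142) in ENR+CD, 32.6 CPM (26.4 to 39.8) in ENR+CV and 1.96 CPM in ENR, and was 4.02-fold higher in ENR+CD (3.23 to 5.04). The secreted inhibitors Wif1 (92 and 1 UMIs) and Dkk3 (113 and 5 UMIs, 14.7-fold, 6.10 to 46.0) were higher in ENR+CD too, with Bambi (2.34-fold, 1.77 to 3.14). Not all inhibitors of the pathway lay on that side. Rnf43, which removes Wnt receptors from the membrane, stood at 145 CPM (135 to 157) in ENR+CD and 187 CPM (171 to 203) in ENR+CV, and Apcdd1 had 13 and 17 UMIs.

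Among the targets higher in ENR+CV were Ascl2, Myc, Ccnd1, Ephb2, Cdx1, Cdx2 and Sfrp5. Myc and Ccnd1 are on the Notch list too, and Ascl2 and Ephb2 on the crypt base list, so these lists are not separate support. Cdx1, an intestinal homeobox gene, was 3.35-fold higher (2.93 to 3.85) and Sfrp5, a secreted Wnt binder, 4.22-fold (2.75 to 6.64). Sp5, Lef1, Znrf3 and Rnf43 differed by 1.17-fold to 1.28-fold. Lef1 was at 27.5 CPM in ENR+CD, 22.1 CPM in ENR+CV and 0.196 CPM in ENR, a ratio of 1.25 (0.917 to 1.71) between the CHIR99021 libraries, which both stood far above ENR.

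The Mmp7 start site is shown because Mmp7 is both a Paneth gene and a Wnt target higher in ENR+CD, with the TCF/LEF motif of the β-catenin partner factors in capitals. The window, across the start site on the plus strand at chr9:7691840-7692139 (RefSeq, GRCm38.p6), holds the reverse complement of CTTTGAT 5 bases after the start.
Mmp7: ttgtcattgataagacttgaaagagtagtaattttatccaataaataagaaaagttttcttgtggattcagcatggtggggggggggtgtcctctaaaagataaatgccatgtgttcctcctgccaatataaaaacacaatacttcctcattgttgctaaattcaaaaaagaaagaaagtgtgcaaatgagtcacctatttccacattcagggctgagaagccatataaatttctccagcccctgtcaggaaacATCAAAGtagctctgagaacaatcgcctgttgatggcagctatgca
CTTTGAT on either strand was present for 4.29% of all genes in the promoter table and for 3 of the 16 Wnt targets matched. It was present for 3.95% of genes higher in ENR+CD, 2.56% of those higher in ENR+CV and 2.96% of the genes compared that matched the table.

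Of 22 Wnt ligand and receptor genes compared, 2 were higher in ENR+CD (9.09%) and 3 in ENR+CV (13.6%). Over all genes the shares were 7.1% and 18.9%, so the list was not far from genes at large. After centring the counts were 4 and 2. Wnt6 had 296 UMIs in ENR+CD, 8 in ENR+CV and 0 in ENR, 24.0-fold higher in ENR+CD than in ENR+CV (12 to 56.1), and Wnt10a had 48 and 1 UMIs. Wnt3, the ligand made by Paneth cells, differed 1.77-fold (1.34 to 2.34). The receptor genes Fzd2, Fzd4 and Fzd5 were higher in ENR+CV, Fzd5 2.22-fold (1.59 to 3.10). Eph and ephrin genes sort cells along the crypt downstream of Wnt. Of 12 compared, 4 were higher in ENR+CV (33.3%) and 1, Efnb2, in ENR+CD (8.33%), against 2 and 1 after centring. Efnb2 was 4.88-fold higher in ENR+CD (3.15 to 7.90).

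**Figure D4:**
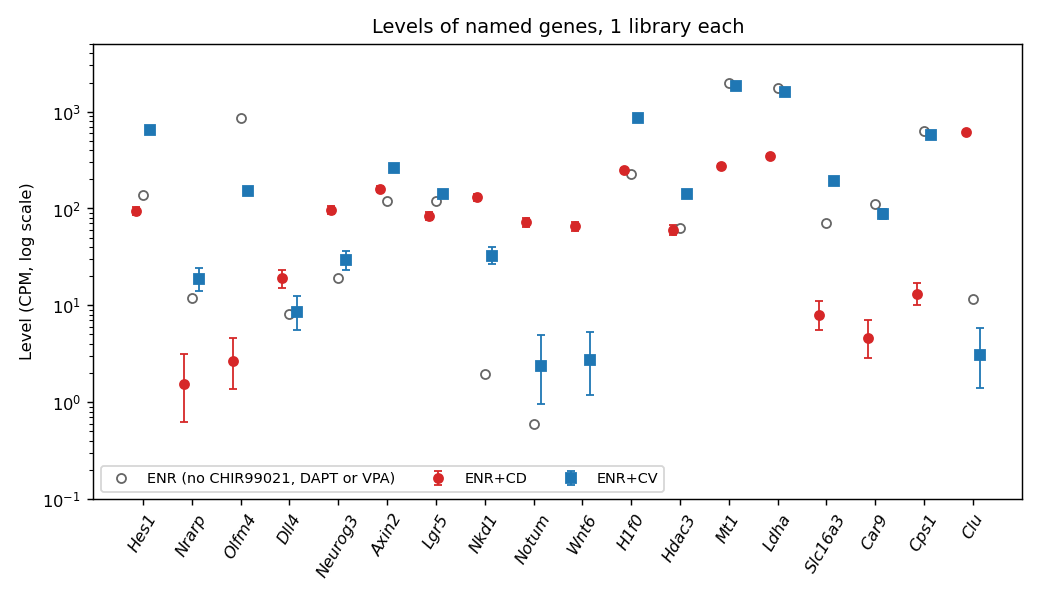
Levels of 18 named genes (x axis) in CPM on a log scale (y axis) in ENR+CD (red circles), ENR+CV (blue squares) and ENR (open circles), 1 library each. Bars are 95% exact Poisson intervals for ENR+CD and ENR+CV and cover counting error only, and Wnt6 has no UMI in ENR and no open circle. Hes1 and H1f0 are high in ENR+CV alone, Notum and Wnt6 in ENR+CD alone, and Cps1, Car9 and Ldha are low in ENR+CD.

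Few histone deacetylase genes differed. Of 17 histone deacetylases and sirtuins, of which valproic acid inhibits class I, 0 were higher in ENR+CD and 3 were higher in ENR+CV, and after centring 1 and 0. Hdac3 was 2.36-fold higher in ENR+CV (2.02 to 2.75), Hdac1 1.69-fold (1.49 to 1.92) and Hdac2 1.36-fold (1.19 to 1.55). With Hdac8, at 24 and 32 UMIs and 2.06-fold (1.17 to 3.65) but with overlapping level intervals, these are the class I genes. Of 32 corepressor and acetyltransferase genes 1 was higher in each medium, Kat2b in ENR+CD and Rcor2 in ENR+CV (4 and 1 after centring). These counts are close to or below the shares over all genes.

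Genes that deacetylase inhibitors are known to induce were counted on both sides. Of 29 compared, 5 were higher in each medium (17.2%). Over all genes 7.1% were higher in ENR+CD and 18.9% in ENR+CV, so the list exceeded the overall share on the ENR+CD side only. After centring 10 were higher in ENR+CD and 4 in ENR+CV. H1f0, the linker histone of resting cells and a classical inhibitor response gene, stood at 250 CPM (236 to 265) in ENR+CD, 866 CPM (832 to 900) in ENR+CV and 229 CPM in ENR, 3.46-fold higher in ENR+CV (3.23 to 3.72). It was raised in ENR+CV against both other libraries. Mt1, a metal-binding metallothionein, was 6.70-fold higher in ENR+CV than in ENR+CD (6.30 to 7.13), but at 1847 CPM against 1960 CPM in ENR it was ENR+CD, at 276 CPM, that was low. Cdkn1a, the cell cycle inhibitor p21, differed 1.81-fold (1.61 to 2.04) and was not counted. Clu, Tubb3, Gsn, Ctgf and Krt23 were the members higher in ENR+CD, Gsn 3.65-fold (2.41 to 5.72).

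Genes of cell division that differed were higher in ENR+CV, except 1 histone gene after centring. Of 50 replication-dependent histone genes 38 were higher in ENR+CV and 0 in ENR+CD (29 and 1 after centring), with a median log2 of -1.94. Hist1h1b was 6.97-fold higher in ENR+CV (5.87 to 8.32). These histone genes are near-identical copies and lack poly(A) tails, so their capture and the split of their reads are uncertain, and they took 0.169% of UMIs in the ENR+CV cells under 5% mitochondrial UMIs against 0.329% in the rest. Of 39 DNA replication genes 25 were higher in ENR+CV and 0 in ENR+CD (13 and 0 after centring), among them Rrm2, for ribonucleotide reductase, 3.88-fold (3.14 to 4.81). Pcna, the polymerase clamp, differed 1.03-fold (0.929 to 1.15). Of 30 mitosis genes 22 were higher in ENR+CV (11 after centring), with Top2a 2.63-fold (2.41 to 2.87) and Mki67 2.10-fold (1.91 to 2.31). Mki67 stood at 384 CPM in ENR and 366 CPM in ENR+CV, against 174 CPM in ENR+CD.

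Enterocyte genes went both ways. Of 25 compared, 13 were higher in ENR+CV and 6 in ENR+CD (12 and 7 after centring). Fabp1, the fatty acid binding protein of proximal enterocytes, was 38.6-fold higher in ENR+CV (31.7 to 47.4) and Alpi, intestinal alkaline phosphatase, 13.6-fold (5.86 to 38.8). Apoa1, an apolipoprotein, was 5.95-fold higher in ENR+CD (3.19 to 12.3), and Sis, Anpep and Slc15a1, which act at the brush border, were also higher there, with Cyp3a11. Of 25 genes of epithelial structure 1 was higher in ENR+CD (4%) and 5 in ENR+CV (20%), with 3 in each after centring. These shares are near the 7.1% and 18.9% over all genes. Krt20, a keratin of differentiated cells, was that 1, 11.5-fold higher (7.90 to 17.3). Vil1, the brush border villin, differed 1.06-fold (0.944 to 1.18).

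Urea cycle and ornithine genes, a list added after the values were seen, had a median log2 of -3.14. Of 12, 10 were higher in ENR+CV and 0 in ENR+CD (8 and 0 after centring). Cps1, the entry enzyme of the cycle, stood at 13.2 CPM (10.1 to 17) in ENR+CD, 581 CPM (554 to 609) in ENR+CV and 637 CPM in ENR, 43.9-fold higher in ENR+CV (34.0 to 57.8). Otc followed with 19.7-fold (13.5 to 29.8) and Ass1 with 12.8-fold (8.83 to 19). Otc stood at 221 CPM in ENR, so for both Cps1 and Otc it was ENR+CD that was low. Ass1 was at 90.1 CPM in ENR+CV and 14.9 CPM in ENR. Arg1 and Odc1 were not counted. In the ENR+CD cells low in antimicrobials 9 of the 12 were higher in ENR+CV.

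Glycolysis genes were higher in ENR+CV almost throughout. Of 20, 17 were higher in ENR+CV and 0 in ENR+CD, with a median log2 of -1.98 (15 and 0 after centring). Ldha, which makes lactate, was 4.66-fold higher in ENR+CV (4.40 to 4.94), Aldoa 5.04-fold (4.76 to 5.35), Tpi1 4.83-fold (4.53 to 5.16) and Eno1 5.79-fold (5.15 to 6.53). In ENR the Ldha level was 1766 CPM, next to 1610 CPM in ENR+CV and against 345 CPM in ENR+CD. Slc16a3, the lactate exporter, stood at 7.93 CPM (5.56 to 11) in ENR+CD, 191 CPM (175 to 207) in ENR+CV and 71.4 CPM in ENR, 24.0-fold higher in ENR+CV than in ENR+CD (17.2 to 34.7). Hk2, Gapdh and Ldhb were not counted, Hk2 at 1.11-fold (0.949 to 1.31). The glycolysis share of a cell had quartiles of 0.0946% and 0.270% in ENR+CD and 0.504% and 1.04% in ENR+CV. Barcodes under 500 UMIs showed a like gap, with 0.188% in ENR+CD and 0.624% in ENR+CV, so the shares of single cells were not read as expression by each cell.

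Genes known to respond to low oxygen, a list added after the values were seen, lay on the same side. Of 22, 15 were higher in ENR+CV and 1, Anxa2, in ENR+CD (11 and 1 after centring). Car9, a carbonic anhydrase under hypoxia control, was 19-fold higher in ENR+CV (12.2 to 31.3), Plod2, a collagen lysyl hydroxylase, 16.6-fold (10.9 to 26.5), and Egln3, an oxygen-sensing hydroxylase, 5.92-fold (4.46 to 7.96). Vegfa differed 1.92-fold (1.6 to 2.31). Car9 was at 4.63 CPM in ENR+CD, 88.0 CPM in ENR+CV and 111 CPM in ENR, so ENR+CD was the low library. Plod2 was at 5.29 CPM, 88.0 CPM and 13.7 CPM in the same order, so ENR+CV was the high library.

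The Slc16a3 start site is shown because it led the glycolysis list, with the core of the hypoxia response element, ACGTG, in capitals. The window is chr11:120948817-120949116 on the plus strand (RefSeq, GRCm38.p6), and the motif stands 27 and 14 bases before the start.
Slc16a3: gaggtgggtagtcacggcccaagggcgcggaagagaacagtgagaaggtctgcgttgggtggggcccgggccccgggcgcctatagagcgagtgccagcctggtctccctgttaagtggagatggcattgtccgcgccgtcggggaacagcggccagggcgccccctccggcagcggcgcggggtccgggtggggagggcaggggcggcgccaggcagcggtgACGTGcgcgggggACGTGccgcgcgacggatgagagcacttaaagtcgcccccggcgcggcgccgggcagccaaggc
ACGTG on either strand, a motif chosen after the values were seen, was present for 13 of 20 glycolysis genes (65.0%), 15 of 18 hypoxia genes (83.3%), 30.0% of the genes compared that matched the table and 21.8% of all genes in it. It was present for 24.4% of genes higher in ENR+CD and 30.9% of those higher in ENR+CV.

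The lipid genes that differed were higher in ENR+CV. Of 22 fatty acid and ketone genes 10 were higher in ENR+CV and 0 in ENR+CD (5 and 0 after centring). Cpt1a, which admits fatty acids to mitochondria, was 4.07-fold higher in ENR+CV (3.07 to 5.45). Of 20 cholesterol synthesis genes 12 were higher in ENR+CV and 0 in ENR+CD (6 and 0 after centring), with Sqle 2.81-fold (2.43 to 3.25). Of 15 metallothionein and zinc transport genes 7 were higher in ENR+CV and 0 in ENR+CD (7 and 1 after centring), among them Slc30a2, a zinc transporter, 3.67-fold (3.06 to 4.42).

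Mitochondrial RNA divided by genome. Of 14 mitochondrially encoded genes 11 were higher in ENR+CD and 0 in ENR+CV (12 and 0 after centring), with a median log2 of 1.53, while of 68 nuclear genes of the respiratory chain 0 were higher in ENR+CD and 30 in ENR+CV (14 after centring), with a median of -0.91. The rRNA gene mt-Rnr2 stood at 57697 CPM (57477 to 57919) in ENR+CD and 21555 CPM (21388 to 21724) in ENR+CV, and mt-Rnr1 at 7072 CPM (6995 to 7149) and 7662 CPM (7562 to 7762). The mRNAs were unequal too, with mt-Co2 49.0-fold higher in ENR+CD (20.8 to 152) and mt-Cytb 3.32-fold (3.21 to 3.42). Mitochondrial UMIs made up a median of 7.18% of an ENR+CD cell and 2.36% of an ENR+CV cell, and 16.5% of the ENR library. The gap depended on the cells taken. In cells under 2000 UMIs the medians were 7.26% and 4.82% and the means 8.86% and 8.77%, and in barcodes under 500 UMIs the order turned, with 12.4% in ENR+CD and 17.9% in ENR+CV. Among cells of 5% or more mitochondrial UMIs, 1785 in ENR+CD and 274 in ENR+CV, mt-Co1, mt-Nd1, mt-Nd4, mt-Nd5 and mt-Rnr2 turned to the ENR+CV side. These cells were chosen by the UMIs of the same genes, and 1785 of 2383 ENR+CD but 274 of 985 ENR+CV cells passed. No conclusion is drawn from the turn.

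Most genes of the regenerative and fetal-like epithelium were higher in ENR+CD. Of 24, 16 were higher in ENR+CD and 1 in ENR+CV (18 and 1 after centring), with a median log2 of 1.90. Clu, clusterin, which marks revival cells after injury, stood at 610 CPM (588 to 634) in ENR+CD, 3.06 CPM (1.40 to 5.81) in ENR+CV and 11.6 CPM in ENR, 200-fold higher in ENR+CD than in ENR+CV (105 to 437). Ly6a, which encodes Sca-1, was 28.6-fold higher (15.9 to 57.8), Anxa1 15.5-fold (10.9 to 22.6) and S100a6 5.30-fold (4.82 to 5.84). Gja1, a gap junction gene, was the exception with 4 and 19 UMIs. In the ENR+CD cells low in antimicrobials 15 members were higher in ENR+CD and the Clu ratio was 241. The list took 0.425% of the ENR+CD library and 0.183% of the ENR+CV library. In barcodes under 500 UMIs the shares were much the same, 0.419% and 0.16%. The shares of single cells, also those low in antimicrobials, were therefore not read as expression by each cell.

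Chemokine and cytokine genes gave 12 of 16 higher in ENR+CD and 2 in ENR+CV, before and after centring, with a median log2 of 2.10. Ccl2, a monocyte attractant, had 128 UMIs in ENR+CD, 0 in ENR+CV and 0 in ENR, at least 27.7-fold higher in ENR+CD (interval from 22.2). Tnf was 12.5-fold higher (4.68 to 47.0) and Ccl20 3.71-fold (1.94 to 7.81), and Cxcl2 had 82 and 1 UMIs. Mif, 5.26-fold (4.87 to 5.70), and Ccl25, the small intestinal chemokine, 5.60-fold (4.41 to 7.19), were higher in ENR+CV. Of 19 interferon-related genes 4 were higher in ENR+CD (21.1%) and 5 in ENR+CV (26.3%), with 5 and 3 after centring. The shares over all genes were 7.1% and 18.9%. H2-Ab1, an MHC class II gene, had 2 and 133 UMIs and its chaperone Cd74 47 and 1. H2-Aa, for the partner chain, and Ciita, the class II regulator, stood at 0 CPM in both libraries.

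Few stress and early response genes differed, read against the 7.1% of all genes higher in ENR+CD and the 18.9% higher in ENR+CV. Of 28 unfolded protein response genes 3 were higher in ENR+CD (10.7%) and 1 in ENR+CV (3.57%), before and after centring, and Hspa5, the main chaperone of the endoplasmic reticulum, differed 1.12-fold (1.07 to 1.18). Of 21 immediate early genes 0 were higher in ENR+CD and 4 were higher in ENR+CV (19%), against 3 and 1 after centring. Egr1 was 2.63-fold higher in ENR+CV (2.46 to 2.81) and Fos differed 1.04-fold in the other direction (0.967 to 1.11). EGF family genes gave 0 of 11 higher in ENR+CD and 1 in ENR+CV (2 and 1 after centring), and BMP response genes 2 of 13 in each (3 and 0). Of 13 linker and replacement histone genes 1 was higher in ENR+CD and 4 in ENR+CV (3 and 2 after centring), and of 14 cell cycle inhibitors 0 and 3 (3 and 2).

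Lists of neuronal, muscle, germline, imprinted and M cell genes were small, and are read against 7.1% and 18.9% over all genes. Whether the neuronal genes came from the hormone cells was not tested. In the order ENR+CD and ENR+CV, 5 and 3 of 12 neuronal genes were higher (41.7% and 25%, 5 and 2 after centring), 3 and 1 of 9 muscle genes (33.3% and 11.1%, 6 and 1 after centring) and 1 and 0 of 4 germline genes, unchanged by centring. Imprinted genes gave 3 and 3 of 14 (21.4% each, 4 and 3 after centring) and M cell genes 3 and 1 of 5 (60% and 20%), again unchanged.

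HoxB ratios differed between the ends of the cluster on chromosome 11, a pattern noticed in the values, without following gene order step by step. Of 8 Hox genes compared, 2 were higher in ENR+CD and 4 in ENR+CV (2 and 3 after centring). Hox genes pattern the body axis and lie in the order of the regions they act in. Hoxb13, at one end (chr11:96194316-96197447 in GRCm38), had 0 UMIs in ENR+CD, 24 in ENR+CV and 0 in ENR. Hoxb9, Hoxb8 and Hoxb7 were higher in ENR+CV, with ENR+CD to ENR+CV ratios of 0.467 (0.285 to 0.759), 0.179 (0.0960 to 0.315) and 0.344 (0.205 to 0.564). Hoxb6 (0.606, 0.353 to 1.04) and Hoxb5 (1.30, 0.490 to 3.80) lay between. Hoxb4 was higher in ENR+CD at 2.69 (1.75 to 4.26), and so was Hoxb2, with 25 and 2 UMIs. Hoxb3 had 10 and 2 UMIs and Hoxb1 0 and 2, too few to count, and Hoxb1, at the far end, had UMIs in ENR+CV only. Hoxb9, nearer to Hoxb13, had a higher ratio than Hoxb8 and Hoxb7. HoxB genes overlap each other and their antisense RNAs, and whether counting used strand is not given in the sources used here, so single ratios are uncertain. Counts were low, the Hoxb6 ratio was 1.44 on reads, and the Hoxb9 ratio turned among cells of 5% or more mitochondrial UMIs.

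**Figure D5:**
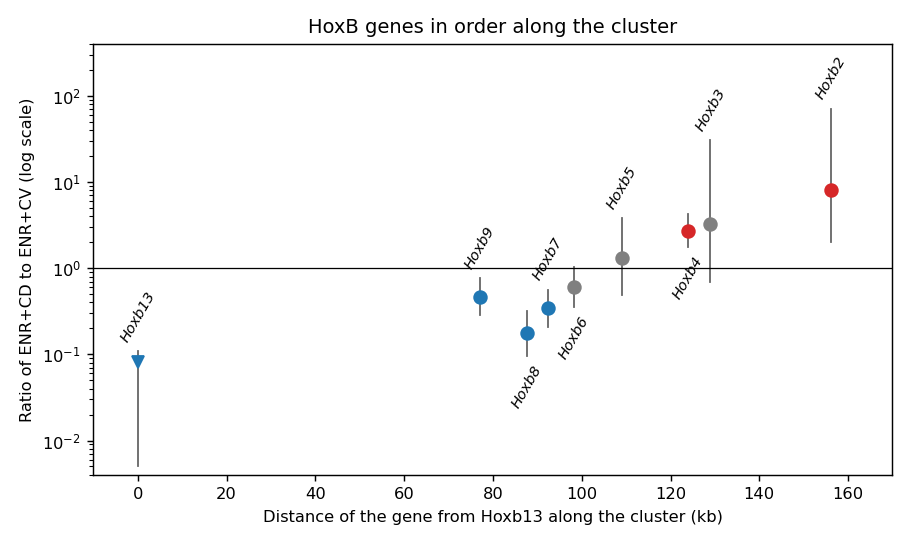
Ratio of the ENR+CD to the ENR+CV level (y axis, log scale) for 9 HoxB genes at their distance from Hoxb13 along the cluster (x axis, kb). Points are genes, red where higher in ENR+CD, blue where higher in ENR+CV and grey where neither, the triangle is an upper bound for Hoxb13 with 0 UMIs in ENR+CD, and lines are 95% exact binomial intervals of counting error. Ratios are under 1 from Hoxb13 to Hoxb6, with Hoxb9 above its neighbours Hoxb8 and Hoxb7, and above 1 from Hoxb5 to Hoxb2, and Hoxb1, with 2 UMIs in all, is not drawn.

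Short non-coding RNAs (snRNA, snoRNA, 5S and 5.8S rRNA, mitochondrial tRNA and miRNA genes), added as a list after the values were seen, were higher in ENR+CV in 210 of 246 cases and in ENR+CD in 9 (190 and 15 after centring), with a median log2 of -3.50. n-R5-8s1, a 5.8S rRNA, had 779 UMIs in ENR+CV and 0 in ENR+CD, at least 401-fold higher in ENR+CV (interval from 325). Within ENR+CV it stood at 876 CPM in the 274 cells of 5% or more mitochondrial UMIs and at 140 CPM in the other 711. The class took 5.70% and 0.912% of UMIs in those cells, and 0.779% and 0.457% in the matching ENR+CD cells. In cells under 5% mitochondrial UMIs 71 of 108 were higher in ENR+CV and 7 in ENR+CD. The row mmu-mir-6236 had 3 UMIs in ENR+CD and 774 in ENR+CV, a ratio of 398 (136 to 1934). Its mature sequence is shown because it was the only miRNA row among the 12 largest ratios on that side, from RefSeq (GRCm38.p6, chr9:110281353-110281371, plus strand), with the seed, bases 2 to 8, in capitals.
mmu-miR-6236: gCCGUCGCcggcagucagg
Seq-Well captures poly(A) RNA, and which molecule these reads came from was not tested.

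By counts the ribosomal protein genes were like the genes at large. Of 85 cytosolic ones, also a list added later, 6 were higher in ENR+CD (7.06%) and 16 in ENR+CV (18.8%), against 7.1% and 18.9% over all genes, with a median log2 of -0.39 (10 and 8 after centring). The class took a median of 8.21% of an ENR+CD cell and 12.8% of an ENR+CV cell. Rpl41 was 6.02-fold higher in ENR+CV (5.84 to 6.21), Rps19 2.96-fold (2.89 to 3.03) and Pabpc1, which binds poly(A) tails, 4.65-fold (4.49 to 4.81). Malat1, a nuclear long non-coding RNA, was 2.59-fold higher in ENR+CD (2.53 to 2.64). These shifts moved with the library and their part in the other ratios was not tested.

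ENR+CV cells held more genes at an equal number of UMIs (the libraries still differed in sequencing depth, with 18.3 and 10.2 reads behind each UMI). With each cell thinned to 1000 UMIs, a cell had a median of 566 genes in ENR+CD (quartiles 508.5 and 625) and 728 in ENR+CV (686 and 752), against 763 and 1430 before thinning. At 2000 UMIs, which left out 1680 ENR+CD and 409 ENR+CV cells, the medians were 995 and 1281.5.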

How the data were processed

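Mouse intestinal organoid cells were profiled with Seq-Well. The authors deposited whole-number UMI counts and read counts per gene and cell, aligned to mm10, and the submitters' processing notes name bcl2fastq, STAR and Seurat (versions not given in the sources used here). Cells of the merged table have 1000 or more UMIs. The per-sample tables, matched to it by cell, gave the reads and the barcodes below 500 UMIs, and that of ENR was not used.

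Cells with fewer than 400 genes (46 in ENR+CD, 6 in ENR+CV) or 8000 or more UMIs (77 and 101) were left out. No doublet caller was run. UMIs were summed per library and scaled to CPM. Genes with 20 or more UMIs in the pair were compared, with exact Poisson and binomial intervals at 95% and a floor of 3 UMIs, and no test was made, since each condition had 1 library. A depth of 4538388 and 2942252 UMIs sets the precision. Columns not used numbered 0.

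Members and gene lists were chosen with earlier results of these data known, and the hypoxia, urea cycle, ribosomal protein and short RNA lists and the ACGTG motif after the values were seen. Named genes were the 12 largest ratios each way among genes of at least 100 UMIs, the 10 highest genes of each library, genes that the study names, and list members, with preference to the 4 members with most UMIs and to all counted members of the Notch, Wnt, HDAC and transcription factor lists, except that a few of them are not reported here. Of 23271 symbols, 21756 matched GENCODE vM21 (GRCm38, the same assembly as mm10). RefSeq promoters matched 8752 of the 12099 genes compared.

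Alternatives changed the scaling, depth, cells, minimum, fold and unit (reads). Scripts used Python 3.11.15, NumPy 2.4.6, SciPy 1.17.1, pandas 2.3.3 and matplotlib 3.10.9 and were tested on simulated data.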

Additional observations from a re-analysis of the deposited data

How the results depend on the processing

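The split of counted genes depended on scaling and on the choice of cells. Genes higher in ENR+CD and in ENR+CV numbered 859 and 2287, against 1434 and 1178 with median centring, 1444 and 1170 with scaling to UMIs outside the antimicrobial, mitochondrial and short RNAs, 515 and 1476 in cells under 2000 UMIs, 467 and 1517 with at least 100 UMIs, and 497 and 600 at 4-fold. Genes higher in ENR+CD numbered 563 with cells thinned to 1000 UMIs, 512 in cells under 5% mitochondrial UMIs and 3206 on reads. Genes higher in ENR+CV numbered 1241 against ENR+CD cells low in antimicrobials and, in an alternative chosen after seeing the data, 1326 in cells of 5% or more mitochondrial UMIs. Notch targets higher in ENR+CV went from 6 to 3 under both rescalings, in cells under 2000 UMIs, against cells low in antimicrobials, at 4-fold and in cells of 5% or more mitochondrial UMIs. Glycolysis genes went from 17 to 10 at 4-fold. The stricter minimum and fold count fewer genes by construction, and the other causes were not tested.

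Of 469 named counted genes, 374 were still counted after median centring and 95 kept their direction without being counted. Centring shifts every log2 ratio by the same amount, which is smaller than the 2-fold rule. No counted gene could therefore change direction under it. The log2 ratio of ENR+CD over ENR+CV changed sign for few. In cells under 2000 UMIs it was -0.28 for mt-Co1 and -0.20 for mt-Nd5. In cells low in antimicrobials it was -0.034 for Lyz2, -0.006 for Pnliprp2 and -0.023 for Spink4. Lyz2 is on the list by which these cells were chosen, and only ENR+CD cells were so chosen. A fall of its ratio follows from that choice. Spink4, at 662 CPM in these cells and 5696 CPM in the other ENR+CD cells, and Pnliprp2, at 17.3 CPM and 171 CPM, were lowered by it too. On reads it was 0.24 for Epha1, 0.092 for Gins1, 0.077 for Hist1h3d, 0.052 for Mvk and 1.01 for Ttn. In cells of 5% or more mitochondrial UMIs it was -0.079 for Ankrd1, -0.041 for Bcas1, 0.37 for Cdkn2c, 0.019 for Gins4, 0.066 for Hoxb9, 0.30 for Mcm10, -0.80 for mt-Co1, -0.45 for mt-Nd1, -0.012 for mt-Nd4, -0.66 for mt-Nd5 and -0.020 for mt-Rnr2. The mitochondrial genes are those by which the cells were chosen, so no conclusion is drawn from their turn.

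No paired analysis was possible because each condition had 1 library, and for the same reason no library was left out. Depth limits genes under 20 UMIs in the pair, for which no direction was given.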
